A study of Solanum lycopersicum with 9 samples.

Results

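The comparison described here was between roots that had met a small pulse of ammonium in a patch of soil and roots that had met water. It rested on 3 arrays of low NH4 patch roots (6.5 µg NH4-N per g of soil) and 3 arrays of water patch roots (0 µg), all harvested 53 h after injection. Its members were chosen by signal: they were the tomato probe sets that reached a signal of 100 or more on at least 1 of these 6 arrays, which took in 6536 of the 10038 tomato probe sets on the chip. A probe set is a group of short probes that report on 1 transcript, and some genes have more than 1.

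The plants were tomato of the wild-type line 76R, grown in pots of soil brought from an organically managed farm, with a buried ring of the same soil that roots could enter. Isotope-labelled ammonium or water was injected into the ring, and only roots inside that ring were taken. Every group thus shared the soil, its arbuscular mycorrhizal fungi and the nitrate it held before the injection. The paper does not give root colonization by treatment, so whether it differed between the groups is not known here. Each group held 3 biological replicates. A further 3 arrays of roots given 65 µg NH4-N per g of soil (high NH4) entered the fit, where they added to the estimate of spread, and are set beside the low dose where a test between the doses was made. In such roots a lower signal can mean less transcript per cell or a smaller share of the cells that carry it, and the arrays cannot tell these apart.

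Roots take up ammonium through AMT1 transporters and nitrate through NRT transporters, and nitrate is reduced through nitrite to ammonium before it is used. Ammonium enters organic form when glutamine synthetase adds it to glutamate and glutamate synthase hands the new amino group to 2-oxoglutarate. The carbon skeletons for this come from sugars by way of glycolysis and the organic acid cycle, which phosphoenolpyruvate (PEP) carboxylase refills, so that sugar and organic acid genes are commonly followed beside nitrogen genes.

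The arrays themselves differed before any gene was compared. The median signal of all tomato probe sets was 7.37, 7.28 and 7.59 (log2) on the water arrays and 7.15, 6.87 and 7.14 on the low NH4 arrays, and the share of tomato probe sets at 100 or more was 58.1 to 61.9% against 52.2 to 56.5%. Control probe sets at the 3′ and the 5′ ends of actin, GAPDH, EF1a and ubiquitin gave a sign of RNA or cDNA quality, since a larger excess of 3′ signal goes with shorter labelled copies. The mean 3′ minus 5′ difference over these 4 genes was 1.21, 1.20 and 0.62 on the water arrays and 2.18, 3.37 and 1.30 on the low NH4 arrays (log2), so that every low NH4 array lay above every water array, whereas the high NH4 arrays (0.81, 1.14 and 1.46) overlapped with both groups. Gene by gene, low NH4 replicate 3 lay within the water range for GAPDH (0.50 against 0.27 to 0.72) and ubiquitin (1.21 against 0.39 to 1.23). Mean signal of the 18 hybridization control probe sets was 9.80 to 10.86 in water and 10.83 to 11.69 in low NH4. Low NH4 replicate 2 and water replicate 3 lay farthest apart on the first principal component, which held 37.8% of the variance. How much of each difference below went with this quality sign and how much with the ammonium cannot be told apart with these arrays. In a fit with the 3′ minus 5′ index as a covariate, chosen after the data were seen, 1 member was called.

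**Figure D1:**
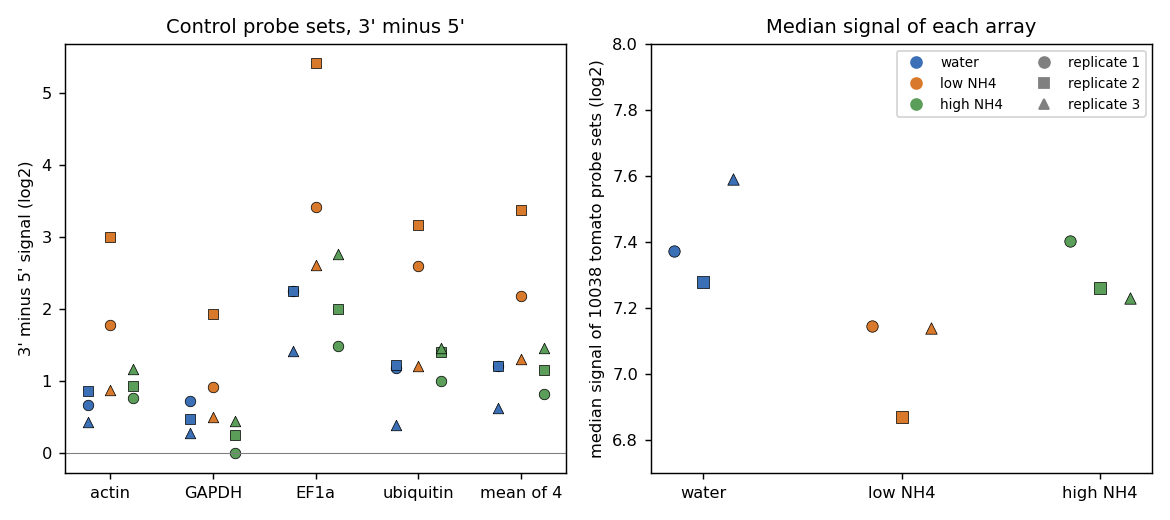
The left panel plots the 3′ minus 5′ difference in log2 signal (vertical axis) for 4 control genes and their mean (horizontal axis) on each of the 9 arrays, and the right panel the median log2 signal of the 10038 tomato probe sets by treatment. Colours mark treatments and shapes mark replicates. The low NH4 arrays have the 3 lowest medians, and their mean indices of 1.30 to 3.37 lie above the 0.62 to 1.21 of the water arrays.

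At the low dose 197 members passed the test (limma, adjusted p under 0.1), of which 162 fell and 35 rose. Among all 6670 probe sets tested, 2.98% were called, 2.44% as lower and 0.540% as higher. The members share nearly all of that background, so their 3.01% is a description of the comparison and not of a chosen list. Those that fell did so by a median of 1.29 on the log2 scale, from 0.64 to 5.35, and 128 of them fell by 2-fold or more and 32 by 4-fold or more. Those that rose had a median difference of 1.01, from 0.66 to 3.51, with 19 at 2-fold or more and 6 at 4-fold or more. On each low NH4 array alone the median distance from the water mean was −1.20, −1.61 and −1.21 over the members that fell and 0.86, 1.30 and 1.03 over those that rose. The direction on each array was fixed by the choice of these members, since the groups of every called member did not overlap.

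Many of the members that fell were dim in low NH4. The signal of 100 is the value that chose the members and not a limit of detection, so the following counts are a description with no test. Of the members that fell, 74 lay under 100 on all 3 low NH4 arrays, and of those that rose 7 lay under 100 on all 3 water arrays. Over all members, 76 reached 100 on every water array and on no low NH4 array, whereas 10 did the reverse, and 4861 reached it on all 6 arrays. With every signal under 100 set to 100 (a floor at 100), 39 members rose and 104 fell, and 48 of the 61 calls named here remained. The values of those lost are given beside each. The whole distribution of differences was also displaced. The median difference over the members was −0.16 (log2), with quartiles of −0.52 and 0.13, so that a fall is read here against a background that itself lay slightly below 0.

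The balance between rises and falls depended on how the arrays were scaled. As deposited, the arrays had nearly the same trimmed mean signal. After each array was centred on its own median, which moved the median difference to 0.07, 68 members rose and 80 fell. After quantile normalization 36 rose and 33 fell, and with scaling on the brightest probe sets 38 rose and 264 fell. None of the 197 members changed direction under any of the 24 alternatives in which it was fitted, but the number that passed the test ranged from 0 to 1117. The number of calls changed widely when single arrays were removed. Removal of water replicates 1, 2 and 3 in turn left 5, 632 and 5 called members, and removal of low NH4 replicates 1, 2 and 3 left 26, 6 and 1117. The high NH4 arrays mattered through the spread, with 33, 27 and 4 called members once replicates 1, 2 and 3 were removed, and 8 were called when the 6 arrays were fitted alone.

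**Figure D2:**
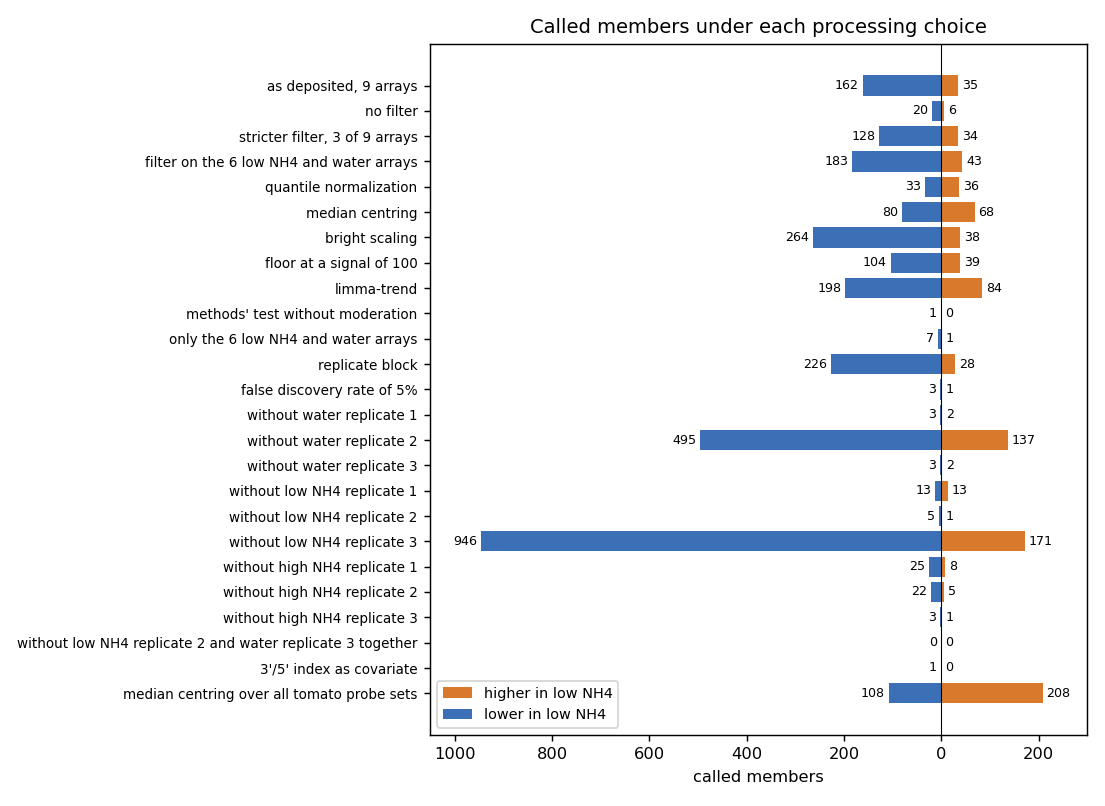
Number of members called as higher (right of 0) and lower (left of 0) in low NH4 against water (horizontal axis) under each processing choice (vertical axis), with the deposited scaling and all 9 arrays at the top. The counts run from 0 without low NH4 replicate 2 and water replicate 3 to 171 higher and 946 lower without low NH4 replicate 3.

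**Figure D3:**
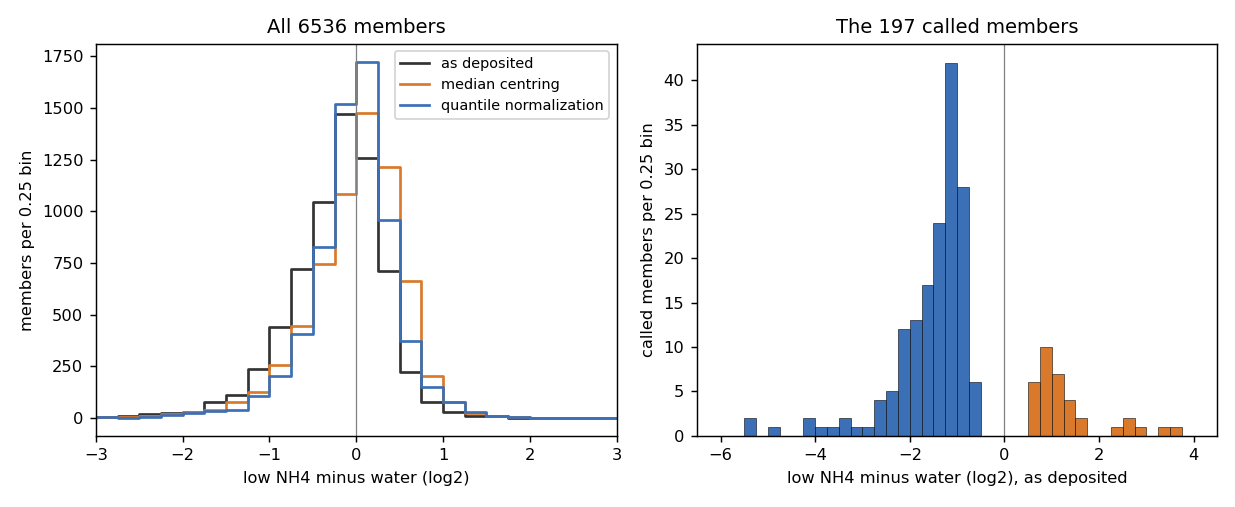
The left panel plots the number of members (vertical axis) by their low NH4 minus water difference (horizontal axis, log2, bins of 0.25) as deposited, after median centring and after quantile normalization. The right panel plots the 197 called members as deposited in the same way. The deposited curve has its median at −0.16 and the centred one at 0.07, and the called members split into 162 below 0 and 35 above.

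Of the genes that handle ammonium, 1 for cytosolic glutamine synthetase was higher in low NH4 than in water. The GTS1 probe set, which the annotation ties to a cytosolic glutamine synthetase, had signals of 196, 224 and 208 on the water arrays and 1120.5, 1495 and 1362 on the low NH4 arrays. It rose by 2.66 ± 0.26 on the log2 scale (limma standard error, n = 3 per group; adjusted p = 0.0125), a 6.31-fold difference. The lowest low NH4 array was far above the highest water array. GTS1 kept its call in 22 of 25 settings, and over the 9 fits that left out 1 array its adjusted p ran from 0.00184 to 0.091. With the 3′ minus 5′ index as covariate its difference was 2.41 and its adjusted p 0.267.

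The other nitrogen genes did not pass the test at this dose. Nitrite reductase (Nii), which turns nitrite into ammonium, had signals of 808, 433 and 724 in water and 1273, 829 and 639 in low NH4, and the groups overlapped (0.47 ± 0.31, adjusted p = 0.364). Plastid glutamine synthetase (GS2) gave 457, 353 and 181 against 472, 444 and 371 (0.47 ± 0.31, adjusted p = 0.366). A probe set named NRT2.1, a high-affinity nitrate transporter, gave 711, 437 and 288 against 812, 626 and 507 (0.51 ± 0.36, adjusted p = 0.397). In all of these the 2 groups shared part of their range. The ammonium transporter AMT1-2 had signals of 220.2, 185 and 239 in water and 528, 213 and 165 in low NH4, so that low NH4 replicate 1 alone stood high (0.31 ± 0.38, adjusted p = 0.63), and without that array the difference was −0.19. The probe set named AMT1 gave 2034, 1401 and 1485 against 1338, 1556 and 1551 (−0.13 ± 0.21, adjusted p = 0.724) and changed sign after median centring. GLT1-like, annotated as NADH-dependent glutamate synthase, gave 671, 609 and 909 against 785, 715 and 572 (−0.07 ± 0.20, adjusted p = 0.849) and also changed sign after median centring. For glutamate dehydrogenase (GDH1), which can release ammonium from glutamate, signals were 2808, 2668 and 1660 and 1716, 1855 and 1389 (−0.50 ± 0.23, adjusted p = 0.218). Counted together, 1 of 8 members of the nitrogen uptake and assimilation list rose and none fell. Their median difference was 0.39, against −0.16 over all members. By limma 1 of the 8 was under an unadjusted p of 0.05, as were 1578 of all 6536 members. Of these 8, 4 are known here only by the study's own titles, which it gave to probe sets it had listed from these arrays, so their presence is not independent of the values.

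Around amino acid metabolism 1 of 10 members rose and 1 fell. The tryptophan synthase-related probe set, similar to the enzyme subunit that completes tryptophan, had signals of 664, 864 and 653 in water and 1542, 1562 and 1254 in low NH4 and rose by 1.004 ± 0.19 (adjusted p = 0.0636). GABA-TP1, a transaminase that breaks down gamma-aminobutyrate, had 969, 809 and 1155 against 439, 585 and 646 and fell by 0.82 ± 0.20 (adjusted p = 0.0973). Its relatives on the list did not pass, with GABA-TP2 at 0.87 ± 0.33 (adjusted p = 0.169) and GABA-TP3 at −0.15 ± 0.28 (adjusted p = 0.76). LKR-like, similar to the enzyme that starts lysine breakdown and not on that list, had 422, 234 and 317 against 158, 109 and 139 and fell by 1.23 ± 0.28 (adjusted p = 0.0945). For the tryptophan synthase-related probe set, GABA-TP1 and LKR-like the groups did not overlap, as in every call and in 25.3% of all probe sets tested. Of these 4 calls, with GTS1 among them, 1, 4 and 1 remained once water replicates 1, 2 and 3 were removed in turn, 1, 1 and 4 in the same order for low NH4 and 1, 1 and 1 for high NH4, and the lost calls had adjusted p of 0.108 to 0.272.

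PEP carboxylase, the enzyme that refills the organic acid cycle with carbon, fell on both of its probe sets. The first had signals of 573, 593 and 658 in water and 222, 155 and 219.8 in low NH4, and fell by 1.63 ± 0.18 (adjusted p = 0.0152). The water arrays were tight and the groups lay well apart, and the call held without any one of the 9 arrays (adjusted p 0.016 to 0.091). The second had 300.4, 337 and 359 against 98.02, 52.03 and 112, and fell by 1.997 ± 0.29 (adjusted p = 0.058). These report on 1 annotated gene and are not independent measurements. PPCK1, the kinase that activates PEP carboxylase, fell with it: its signals were 1059.7, 1033 and 1025 in water and 377, 529.6 and 440.5 in low NH4 (−1.22 ± 0.20, adjusted p = 0.0598).

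Isocitrate lyase, the glyoxylate cycle enzyme through which plants turn lipid carbon into organic acids, had among the widest differences. Its signals were 573, 581 and 1503 in water and 52.6, 61.1 and 87.9 in low NH4, and it fell by 3.60 ± 0.58 on the log2 scale (adjusted p = 0.0598), with all 3 low NH4 arrays under 100. ACN1-like, similar to an Arabidopsis enzyme that activates acetate for that cycle, gave 179, 160.5 and 240.3 against 75.3, 106 and 59.9 (−1.28 ± 0.30, adjusted p = 0.0954). A 3-hydroxybutyryl-CoA dehydrogenase, of the fatty acid oxidation family, gave 675, 500.3 and 635 against 287, 212 and 350.4 (−1.11 ± 0.23, adjusted p = 0.0826). These probe sets, with PEP carboxylase and PPCK1, all fell with no overlap between the groups, as did all 162 falls. Of the 6 calls on organic acid genes, 1, 6 and 1 remained once water replicates 1, 2 and 3 were removed in turn, 2, 2 and 6 in the same order for low NH4 and 4, 4 and 1 for high NH4, and the lost calls had adjusted p of 0.104 to 0.272.

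Sugar genes moved down in part. Of 20 members of the sugar metabolism and transport list 7 fell and none rose, against the background of 2.44% lower calls. These 7 include isocitrate lyase, counted above with the organic acid genes, and the pair of glycosyl hydrolases described below. Of the 12 that carry a platform symbol 3 fell, and the other 4 falls were among 8 known by the study's own titles. From these same arrays the paper had already named isocitrate lyase and SUT4 as sugar genes of the low dose. The count by symbol is therefore not independent of the values either. The list's median difference was −0.19 as deposited and 0.04 after median centring. Sucrose-phosphate synthase (SPS), which makes sucrose, had 1189.9, 811 and 1149.6 in water and 469.9, 527 and 409 in low NH4 and fell by 1.15 ± 0.24 (adjusted p = 0.0826). The sucrose transporter SUT4 was dimmer, with 131, 118 and 127 against 90.2, 73.00 and 71.1, and fell by 0.69 ± 0.16 (adjusted p = 0.0945). Both groups of arrays were narrow for SUT4, and all low NH4 arrays lay under 100, so that with the floor at 100 its difference was −0.33 (adjusted p = 0.158). Trehalose-phosphate synthase 1, which makes the sugar signal trehalose 6-phosphate, had 133, 119 and 142 against 61.8, 71.2 and 67.9 (−0.97 ± 0.15, adjusted p = 0.058). All its low NH4 arrays too lay under 100, and with the floor the difference was −0.39 (adjusted p = 0.119). Its relative TPS6-like gave 256, 169.9 and 186 against 119.8, 84.7 and 109 (−0.96 ± 0.21, adjusted p = 0.0945). Sucrose synthase 3, 3 fructokinases and 2 hexokinases of the same list did not pass, with differences between −0.21 and 0.37.

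Further called enzymes of sugar and polysaccharide metabolism are described singly, and no test was made of them as a group. Beta-amylase (BMY3), which releases maltose from starch, had 376, 247 and 641 in water and 150.4, 88.2 and 188 in low NH4 (−1.53 ± 0.37, adjusted p = 0.0979), and with the floor at 100 its adjusted p was 0.107. A pair of probe sets for glycosyl hydrolases of family 17, a family of beta-glucan-cutting enzymes, fell by 1.46 ± 0.22 (signals 224, 217 and 212 against 104, 62.9 and 76.7, adjusted p = 0.058) and by 1.19 ± 0.24 (adjusted p = 0.0826). UGE1-like, similar to the epimerase that interconverts UDP-glucose and UDP-galactose, had 349, 158 and 401 against 90.8, 84.3 and 55.5 (−1.90 ± 0.35, adjusted p = 0.063). In contrast, 2 enzymes of the pentose phosphate pathway rose. A 6-phosphogluconate dehydrogenase, which yields NADPH in that pathway, had 1592, 1555 and 1595 against 2507, 3255 and 2312 and rose by 0.75 ± 0.16 (adjusted p = 0.0939). The transaldolase ToTAL2 had 481, 473 and 526 against 652, 882 and 835 and rose by 0.67 ± 0.16 (adjusted p = 0.0975). Of the 10 sugar gene calls, 0, 9 and 0 remained once water replicates 1, 2 and 3 were removed in turn, 1, 0 and 10 in the same order for low NH4 and 2, 2 and 0 for high NH4, and the lost calls had adjusted p of 0.103 to 0.272.

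**Figure D4:**
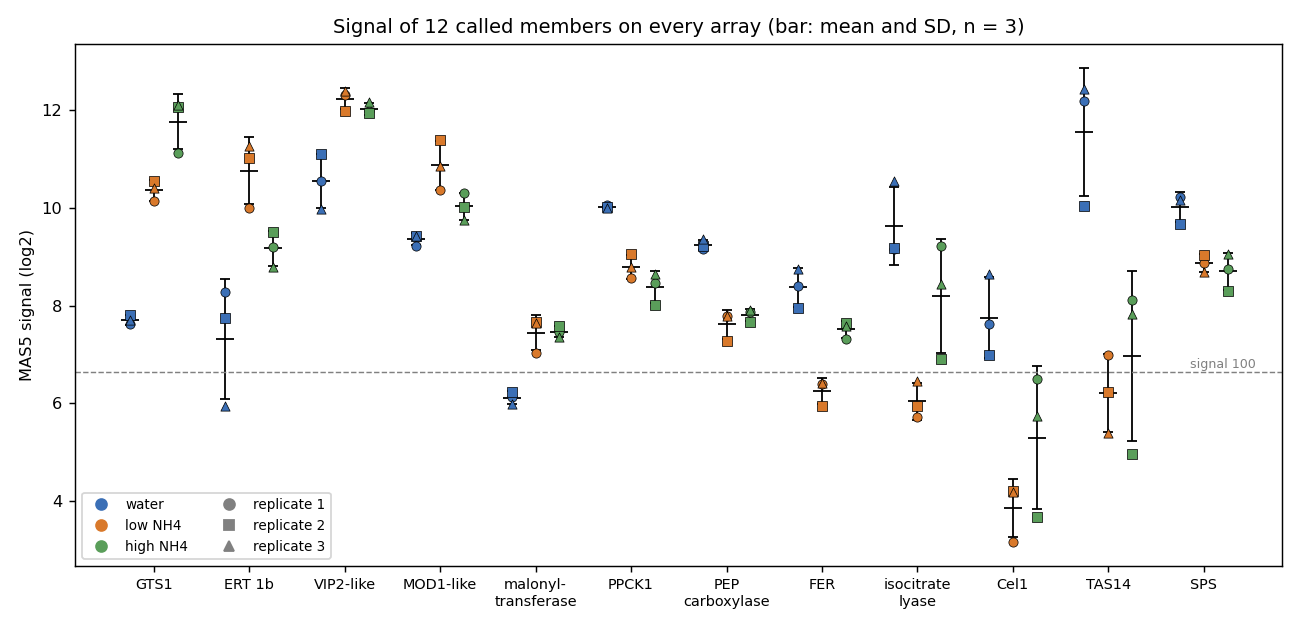
Log2 MAS5 signal (vertical axis) of 12 members that passed the test at the low dose, on each of the 9 arrays, with the mean and SD of 3 arrays as bars; colours mark treatments, shapes replicates and the dashed line a signal of 100. GTS1 goes from 196 to 224 in water to 1120 to 1495 in low NH4, whereas isocitrate lyase, FER, Cel1 and TAS14 have low NH4 means below the line.

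Of 9 members of the dehydration and abscisic acid list, each known by its platform symbol, 3 fell and none rose, where 2.44% of all probe sets tested were called lower. The paper had already listed a TAS14 dehydrin and dehydration genes as regulated on these same arrays. The count and the median of this list are therefore not independent of the values. All 9 had a difference below 0, as did 64.4% of all members. The list's median was −1.28, −1.05 after median centring and −0.81 after quantile normalization, against −0.16 over all members as deposited. TAS14, a dehydrin that accumulates in drying tissue, had the widest fall of all members as deposited: its signals were 4643, 1054 and 5547 in water and 128, 74.6 and 42.1 in low NH4 (−5.35 ± 0.91, adjusted p = 0.0598). Water replicate 2 was far below the other water arrays and still stood above every low NH4 array. NCED1, the enzyme that commits carotenoid carbon to abscisic acid, had 265, 131 and 403 against 105, 59.7 and 49.98 and fell by 1.83 ± 0.43 (adjusted p = 0.0954), with −1.25 (adjusted p = 0.122) under the floor at 100. Zeaxanthin epoxidase (ZEP), an earlier step of that route, had 584, 305 and 450.2 against 139, 214 and 143 and fell by 1.42 ± 0.27 (adjusted p = 0.063). The cold-response factor CBF1 did not pass, and its low NH4 replicate 1 was as bright as the water arrays (signals 308, 359 and 532 against 441, 80.97 and 101, adjusted p = 0.207).

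Upstream of these, beta-carotene hydroxylase, which makes zeaxanthin, had 603, 249 and 925 in water and 106, 138 and 101 in low NH4 and fell by 2.18 ± 0.43 (adjusted p = 0.0766). It was the single call among 15 members of the plastid isoprenoid and carotenoid list. DXS, which starts plastid isoprenoid synthesis, gave 1194, 672 and 869.8 against 386, 643 and 272 (−1.12 ± 0.37, adjusted p = 0.146). Among 10 heat shock members 1 fell: HSP17-6, a small heat shock protein that keeps other proteins from clumping, had 4287, 1727 and 4614 against 864, 1234 and 366 (−2.15 ± 0.49, adjusted p = 0.0945, and 0.103 with the floor at 100). Of the 5 calls in this group, 0, 5 and 0 remained once water replicates 1, 2 and 3 were removed in turn, 0, 0 and 5 in the same order for low NH4 and 1, 1 and 0 for high NH4, and the lost calls had adjusted p of 0.103 to 0.272.

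FER, the basic helix-loop-helix factor that switches on iron uptake in tomato roots, was lower on every low NH4 array than on any water array. All 162 falls had this separation. Its signals were 339, 249 and 429.9 in water and 84.2, 61.7 and 84.7 in low NH4, so that all low NH4 arrays lay under 100, and it fell by 2.12 ± 0.23 on the log2 scale (adjusted p = 0.0152). The call held without any one of the 9 arrays (adjusted p 0.00783 to 0.091), and it was the single call among 5 members of the iron list. With the 3′ minus 5′ index as covariate the difference was −1.82 with an adjusted p of 0.267.

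Of 5 phosphate transport and starvation members 1 fell and none rose. RNALX, a ribonuclease that tomato makes when phosphate is short, had 657, 1547 and 998 in water and 363, 302 and 256 in low NH4 and fell by 1.73 ± 0.32 (adjusted p = 0.063), and the list's median was −0.88. TPSI1, a phosphate starvation transcript, had high signals of 3089, 6085 and 3955 against 2140, 2329 and 1113 without overlap, and did not pass (−1.25 ± 0.36, adjusted p = 0.123). The phosphate transporter PT1 gave 1384, 1299 and 1634 against 1009, 846 and 800.5 (−0.70 ± 0.19, adjusted p = 0.109), again without overlap, which 25.3% of all probe sets tested showed. PT2, a related transporter, gave 186, 149 and 65.8 against 95.04, 85.96 and 35.7, where the groups overlapped (−0.88 ± 0.46, adjusted p = 0.26). The paper describes PT1 as the only phosphate transporter on the chip, whereas a platform symbol ties this probe set to PT2. By quantitative PCR the paper reports TPSI1, PT1 and PT2 as lower at the low dose than in water. The other member, the ribonuclease RNALE, lay on the other side, with 446, 1154 and 467 against 457, 1758 and 1297 (0.70 ± 0.54, adjusted p = 0.433). Of the FER and RNALX calls, 1, 2 and 1 remained once water replicates 1, 2 and 3 were removed in turn, 1, 1 and 2 in the same order for low NH4 and 1, 1 and 1 for high NH4, and the lost calls had adjusted p of 0.104 to 0.191.

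Called members with a calcium or kinase title went both ways, and no list of such genes was tested. CIPK20-like and CIPK14-like are similar to Arabidopsis kinases that calcineurin B-like calcium sensors activate. CIPK20-like had 289.7, 177 and 415 in water and 73.5, 46.6 and 84.7 in low NH4 (−2.06 ± 0.36, adjusted p = 0.0615). CIPK14-like had 372, 329 and 369.7 against 129.5, 92.9 and 189 (−1.44 ± 0.24, adjusted p = 0.0598). Both were separated on every array, as was every called member. Probe sets for 2 proteins with calcium-binding EF hands went opposite ways. The first had 646, 390.2 and 642 against 219.7, 239 and 140.5 and fell by 1.49 ± 0.26 (adjusted p = 0.063). The second had 382, 420 and 430.3 against 790.4, 747 and 1078 and rose by 1.07 ± 0.19 (adjusted p = 0.063).

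IQD32-like, a calmodulin-binding protein, fell by 0.92 ± 0.17 (adjusted p = 0.063), a calcium-transporting ATPase, which pumps calcium out of the cytosol, by 0.93 ± 0.21 (adjusted p = 0.0939), PP2C-like, a protein phosphatase, by 1.08 ± 0.25 (adjusted p = 0.0945) and a receptor-like kinase-related probe set by 1.46 ± 0.29 (adjusted p = 0.0822). With the floor at 100 the last of these was −0.52 (adjusted p = 0.15). A probe set titled as a protein kinase rose, with 291, 319 and 299.8 in water and 539, 525 and 389 in low NH4 (0.66 ± 0.16, adjusted p = 0.0985). Among transcriptional regulators, IAA7, a repressor of auxin-responsive genes, had 74.2, 77.7 and 332 against 24.7, 20.1 and 19.1, and water replicate 3 was far above the other water arrays (−2.55 ± 0.57, adjusted p = 0.094). Of its 6 signals 1 reached 100, and with the floor the difference was −0.58 (adjusted p = 0.438). GRAS10, of the GRAS family, had 382, 266 and 336 against 177, 141 and 158 (−1.04 ± 0.21, adjusted p = 0.0826). THM27, a MYB factor, had 1260.2, 884 and 1092 against 681, 517 and 459 (−0.97 ± 0.22, adjusted p = 0.0945). All 3 fell. Of the 12 signalling and regulator calls, 0, 12 and 0 remained once water replicates 1, 2 and 3 were removed in turn, 0, 0 and 12 in the same order for low NH4 and 2, 0 and 0 for high NH4, and the lost calls had adjusted p of 0.101 to 0.272.

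Lipid genes moved both ways, with 2 steps of fatty acid synthesis higher. The acyl carrier protein (ACP) malonyltransferase, which loads the building block of fatty acids, had 69.9, 75.1 and 62.9 in water, all under 100, and 131, 202 and 199 in low NH4, and rose by 1.33 ± 0.20 (adjusted p = 0.058). MOD1-like enoyl-ACP reductase, similar to the Arabidopsis enzyme of the last reduction in each round, had 593, 684 and 691 against 1326, 2671 and 1847 and rose by 1.52 ± 0.26 (adjusted p = 0.0598). No list of fatty acid genes was tested, and these 2 are named because their calls held under the deposited, the median-centred and the quantile scaling. PLDb1, a phospholipase D that cuts the head group from membrane lipids, rose by 0.71 ± 0.16, with 564, 614 and 513 against 934, 908 and 922 (adjusted p = 0.0939). In the other direction, a GDSL lipase had 438, 267 and 417 against 87.5, 66.3 and 144 and fell by 1.96 ± 0.31 (adjusted p = 0.058). A class 3 lipase fell by 1.12 ± 0.25 (adjusted p = 0.0945), CDP-diacylglycerol synthase, which makes the precursor of several phospholipids, by 1.18 ± 0.22 (adjusted p = 0.063) and PAS2-like, similar to an Arabidopsis enzyme of very-long-chain fatty acid synthesis, by 1.41 ± 0.26 (adjusted p = 0.063). With the floor at 100, CDP-diacylglycerol synthase was −0.30 (adjusted p = 0.258) and the ACP malonyltransferase, still called, 0.80.

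Of 40 cell wall members 1 fell and none rose. That member was Cel1, an endoglucanase that cuts wall glucans, with 197, 128 and 398 in water and 8.93, 18.5 and 18.2 in low NH4 (−3.90 ± 0.70, adjusted p = 0.063). All its low NH4 signals were far below 100, and with the floor at 100 the difference was −1.11 (adjusted p = 0.145). Outside the list, a pectate lyase, which cuts pectin, had 865, 989.9 and 844 against 1795, 1398 and 1346 and rose by 0.74 ± 0.17 (adjusted p = 0.0945). A subtilase, a serine protease, had 378, 380.2 and 335 against 168, 128 and 179.8 and fell by 1.22 ± 0.20 (adjusted p = 0.0598). Of these 10 lipid and wall calls, 0, 10 and 0 remained once water replicates 1, 2 and 3 were removed in turn, 2, 0 and 10 in the same order for low NH4 and 5, 3 and 0 for high NH4, and the lost calls had adjusted p of 0.101 to 0.27.

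The member that rose most among those with a name was ERT 1b, titled as a ripening-related mRNA. Its signals were 311, 215 and 61.4 in water and 1014, 2076 and 2479 in low NH4 (3.44 ± 0.58, adjusted p = 0.0598), with water replicate 3 far below the other water arrays. VIP2-like, similar to an Arabidopsis transcriptional regulator, was bright in all roots and rose from 1504, 2191 and 1014 to 5076, 4070.1 and 5389.5 (1.69 ± 0.27, adjusted p = 0.058). Both sets of arrays were clear of each other, as for every called member. TSI-1 had 2567, 3166 and 2458 against 5498, 4611 and 4287 and rose by 0.81 ± 0.19 (adjusted p = 0.0954). GSTU25-like, similar to an Arabidopsis glutathione transferase of the tau class that joins glutathione to other compounds, had 1672, 1903 and 1544 against 3206, 2882 and 2707 and rose by 0.78 ± 0.16 (adjusted p = 0.0826). Among the falls were CXE18-like, a carboxylesterase (−1.25 ± 0.23), a short-chain dehydrogenase (−1.32 ± 0.24), a cytochrome P450 (−1.28 ± 0.27) and SPE4 (−1.10 ± 0.25), with adjusted p between 0.063 and 0.0945.

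Of the called members, 125 had no gene name in the sources used here. From these, the lowest adjusted p and the widest difference in each direction are given, a choice made after the values were seen. The unnamed probe set with the lowest p of the falls had little spread, with 112, 117 and 132 in water and 12.4, 16.5 and 22.5 in low NH4 (−2.85 ± 0.21), and its adjusted p of 0.0023 was the lowest of the comparison. All its low NH4 signals were under 100, and with the floor at 100 its difference was −0.26 (adjusted p = 0.171). It was called in 23 of 25 settings and was the 1 call left with the 3′ minus 5′ index as covariate (adjusted p = 0.0877). The one with the lowest p of the rises went from 35.1, 32.6 and 12.3 to 107, 145 and 176 (2.53 ± 0.40, adjusted p = 0.058). As deposited, the widest fall among them was from 75.3, 18.4 and 411 to signals of at most 7.80 in low NH4 (−5.25 ± 1.16, adjusted p = 0.0939), and the widest rise from 31.9, 33.3 and 5.53 to 109, 308 and 260.3 (3.51 ± 0.67, adjusted p = 0.063). For the widest fall, water replicate 3 was the single array at 100 or more. None of these 3 passed with the floor at 100, where the differences were 0.48 (adjusted p = 0.166) and 1.04 (adjusted p = 0.154) for the rises and −0.68 (adjusted p = 0.436) for the fall. Of these 12 calls, from ERT 1b to these unnamed probe sets, 1, 12 and 2 remained once water replicates 1, 2 and 3 were removed in turn, 3, 1 and 12 in the same order for low NH4 and 4, 3 and 1 for high NH4, and the lost calls had adjusted p of 0.101 to 0.272.

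Several groups that are often followed in nitrogen studies gave no call at the low dose. The counts under an unadjusted p of 0.05 are read against all 6536 members, of which 1578 were under it, 1206 lower and 372 higher. None of 31 ethylene members passed the limma test (4 had an unadjusted p under 0.05, all lower). ACS1A, an enzyme that makes the ethylene precursor, gave 781, 258 and 526 in water and 253, 130.1 and 191 in low NH4 (−1.36 ± 0.39, adjusted p = 0.124). ACO4, which turns that precursor into ethylene, gave 3979, 3609 and 3273 against 2028, 2866 and 2319.8 (−0.60 ± 0.19, adjusted p = 0.134). In both the groups lay apart without a call, and over all probe sets tested they lay apart in 25.3%. None of 16 pathogenesis-related members passed either (5 under an unadjusted p of 0.05, of which 4 were higher), although their median was 0.47. PR-1a1, an antimicrobial protein of the PR-1 class, gave 2279.7, 1458 and 1800.1 against 3293, 2888 and 4842 (0.98 ± 0.25, adjusted p = 0.105), and a PR5-like protein 672, 879 and 1641 against 2318, 1953 and 2436 (1.17 ± 0.36, adjusted p = 0.129). There was likewise no call among 25 cell cycle and histone members (median 0.23, 3 under an unadjusted p of 0.05), 18 members of the 14-3-3 and MAP kinase list (median 0.08, 2 under 0.05) or 8 jasmonate and wound members (median −0.04, 0 under 0.05).

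The tissue label was checked with the same lists. The root uptake genes AMT1, NRT2.1, PT1 and FER all reached 100 on every water array. On the low NH4 arrays AMT1, NRT2.1 and PT1 did so again, whereas FER did not on any (84.2, 61.7 and 84.7). The root markers IRT1 and IRT2, planned for the same check, do not appear by name among the members of the iron list. The 7 photosynthetic members had a summed signal of 2261 to 3258 on the water arrays, 976 to 2084 on the low NH4 arrays and 824 to 1454 on the high NH4 arrays, and 6 of the 7 had a difference below 0 at the low dose. None of them was at 0 and none passed the test. CAB4, a chlorophyll-binding antenna protein, gave 271, 152 and 313 in water against 146, 93.6 and 64.3 in low NH4 (−1.29 ± 0.47, adjusted p = 0.164), and the photosystem II protein PSBR 1967, 1528 and 1926 against 1117, 1365 and 612 (−0.88 ± 0.30, adjusted p = 0.155). The part of this shift in the falls described above was not tested. The 6 members of the reference gene list had no call at the low dose and a median difference of 0.11. A tubulin (TUB) is among them (−0.24 ± 0.20, limma adjusted p = 0.471). The paper reports that a tubulin it tried as a control for quantitative PCR was differentially expressed across the samples.

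Both doses were compared with the same water arrays, so their differences from water are set side by side. Only the contrast of high NH4 with low NH4 was tested between the doses. For called members it reuses the low NH4 arrays by which they were chosen. That choice by itself favours values nearer to water at the high dose. Of all probe sets tested, 6.52% were called between high NH4 and water and 0.900% between high NH4 and low NH4. Among the 162 members that fell at the low dose, 59 also passed the test as lower at the high dose and 5 had the opposite sign there, with a median high dose difference of −0.89; 7 of the 162 differed between the doses. Among the 35 that rose, 8 also rose at the high dose, 2 had the opposite sign, the median was 0.61, and 2 differed between the doses.

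GTS1 was higher again at the larger dose, with high NH4 signals of 2236, 4265 and 4431. Its difference from water was 2.66 ± 0.26 at the low and 4.06 ± 0.26 at the high dose, and high NH4 exceeded low NH4 by 1.40 ± 0.26 (adjusted p = 0.0922). Nii, which had not passed at the low dose, reached 2274, 3051 and 2801 in high NH4 (2.09 ± 0.31 from water), above low NH4 by 1.62 ± 0.31 (adjusted p = 0.0922). All high NH4 arrays of both genes were above all low NH4 arrays. For AMT1-2, with 714, 927 and 993 in high NH4, the difference between the doses was 1.71 ± 0.38 and missed the threshold (adjusted p = 0.107).

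Other members were nearer to water at the high dose than at the low one. FER had 159, 200 and 193 in high NH4, between the other groups, and exceeded low NH4 by 1.27 ± 0.23 (adjusted p = 0.0922). The first glycosyl hydrolase 17 had 352, 265 and 246 in high NH4, above both other groups, and exceeded low NH4 by 1.84 ± 0.22 (adjusted p = 0.0476). Trehalose-phosphate synthase 1 had 135, 117 and 118 in high NH4, against 133, 119 and 142 in water, and exceeded low NH4 by 0.88 ± 0.15 (adjusted p = 0.0861). All 3 had their lowest signals in low NH4. The subtilase, at 427, 293 and 293 in high NH4, exceeded low NH4 by 1.08 ± 0.20 (adjusted p = 0.0922), and the protein kinase, at 267, 261 and 282, was below low NH4 by 0.83 ± 0.16 (adjusted p = 0.0922). For the first PEP carboxylase probe set, NCED1 and ZEP the differences between the doses were 0.19 ± 0.18, −0.10 ± 0.43 and −0.03 ± 0.27, with 95% intervals from −0.22 to 0.60, from −1.08 to 0.89 and from −0.64 to 0.58. Of the 72 named members that passed at the low dose 6 differed between the doses, and this number was 0 once low NH4 replicate 2 was removed, 0 once high NH4 replicate 2 was, 21 once low NH4 replicate 3 was and 1 after median centring.

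**Figure D5:**
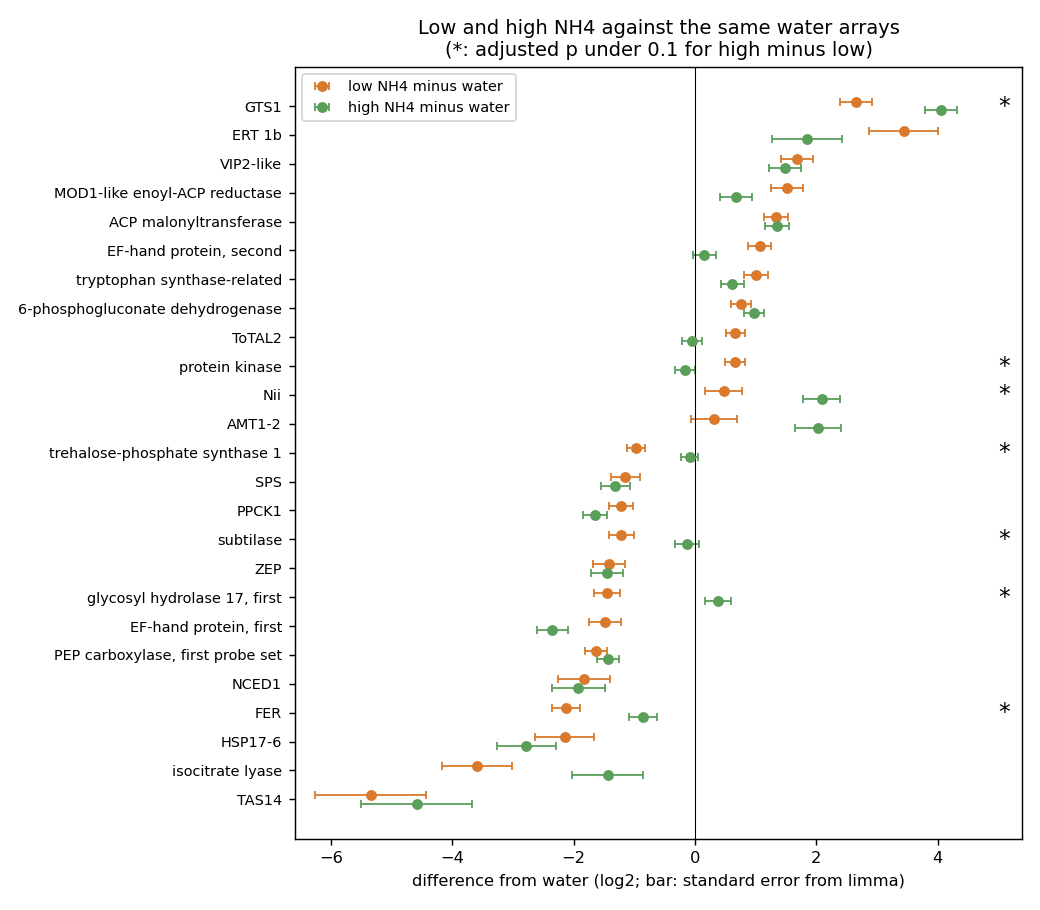
Difference from water (horizontal axis, log2) of 25 named members (vertical axis) at the low and the high dose, with limma standard errors as bars; an asterisk marks members whose high minus low contrast had an adjusted p under 0.1. GTS1 lies at 2.66 and 4.06, and FER at −2.12 and −0.86.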

How the data were processed

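Root RNA of 9 plants was hybridized to the Affymetrix Tomato Genome Array, 1 array per plant. Per the labels and the study's methods, the authors summarised each array with MAS5 in Expression Console and deposited the natural log of the signals; no version, genome build or between-array normalization is given in the sources used here, but the 2% trimmed mean of the deposited signals was 500.06 to 500.09 on every array; MAS5 can scale arrays to a common trimmed mean. The deposited natural log values were converted to log2. The array has 10209 probe sets, of which 171 controls were left out. Arrays hold no read depth, and their number (3 per group) limits the precision.

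One fit of the 3 treatments was made with limma 3.58.1 in R 4.3.3 (lmFit and eBayes, two-sided, Benjamini-Hochberg over 6670 probe sets with a signal of 100 or more, natural log 4.605, on at least 1 of 9 arrays). An adjusted p under 10% counted as a call; filter and rate follow the study's methods. The fit had 6 residual and 2.87 prior degrees of freedom. ± marks limma's standard error. The script was tested on simulated data. The authors' own fold changes and p-values were not used.

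Genes were named by a platform symbol (655 members, through RefSeq where it had an entry) or by the study's titles, which exist here for 607 probe sets that it had listed from these same arrays; names ending in "-like" give the closest annotated protein. No sequences or coordinates are shown. Members, gene lists and tests were chosen with earlier results of these data known. Text examples follow a rule: called members with the 20 widest consistent differences, up to 4 per list of 19 and every call in it, those called under 3 scalings, nitrogen and sugar genes the study discusses, and targets of its quantitative PCR; further called members were added from all 72 that have a name, and 4 without one by lowest adjusted p and widest difference in each direction, a choice made after their values were seen, as was RNALE, which completes the phosphate list. Alternatives were other filters, scalings, tests, a replicate block, leaving out arrays and, added after seeing the data, the 3′ minus 5′ index as covariate and centring on all tomato probe sets.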

Additional observations from a re-analysis of the deposited data

Results flagged for a closer look

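The response of 7 named members differed between the doses by the limma contrast of high NH4 minus low NH4 (adjusted p under 0.1, log2). High NH4 was above low NH4 by 1.27 for FER, 1.84 for the first glycosyl hydrolase 17, 1.08 for the subtilase, 0.88 for trehalose-phosphate synthase 1, 1.62 for Nii and 1.40 for GTS1, and the protein kinase gave −0.83. All but Nii had passed the test at the low dose, and so were chosen by low NH4 arrays that this contrast uses again.

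The mean index of the control probe sets, which enter no comparison of the members, separated low NH4 from water. The lowest low NH4 array had a mean 3′ minus 5′ difference of 1.30 (log2), above the highest water array at 1.21. For GAPDH and ubiquitin taken singly, low NH4 replicate 3 lay within the water range. The part of this index in the differences between the groups was not tested beyond the fit with the index as covariate.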

How the results depend on the processing

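None of the 197 called members reversed under the 24 alternatives in which it was fitted, but the count of calls moved widely. Only the other scalings and the index covariate could have reversed them, since the 2 groups of every called member did not overlap. Other settings gave 26 calls with no filter, 69 after quantile normalization, 302 with bright scaling, 4 at a false discovery rate of 5%, 8 with the 6 arrays alone, 1 with the methods' test without moderation, 1 with the 3′ minus 5′ index as covariate (787 members at an unadjusted p under 0.05), 316 after centring on all tomato probe sets and 0 by limma without low NH4 replicate 2 and water replicate 3 together (706 at an unadjusted p under 0.05). The paper reports a larger count for low NH4 against water at the same rate, from fewer transcripts. The test without moderation did not reproduce that count here, and the reason was not tested. Leaving out 1 array at a time gave 4 to 1117 calls, the lowest without high NH4 replicate 3 and the highest without low NH4 replicate 3. With no filter more probe sets share the adjustment, and without an array fewer samples enter; the cause of the other shifts was not tested. Of the 61 calls named in the text, 0 to 61 remained under single alternatives. The study's methods place the plants in blocks, but the labels do not say whether the replicate numbers mark them, and same-numbered arrays did not deviate together (correlations of −0.38, 0.16 and 0.02 between water and low NH4). With the replicate block 254 members were called, of which 157 were shared, and 50 of the 61 calls named in the text remained.

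The number of named calls that differed between the doses, 6 in the main fit, was 1 with no filter, the filter on 6 arrays, quantile normalization, median centring, the replicate block, a false discovery rate of 5% or the removal of both arrays together, 0 with the methods' test or the index covariate (limma), 2 after centring on all tomato probe sets, and 0 to 21 without 1 array.

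Among the genes named in the text, the differences that reversed were of uncalled nitrogen genes. AMT1 was 0.10 after median centring, 0.035 without water replicate 1 and 0.23 after centring on all tomato probe sets, and ran from −0.23 to 0.035 without 1 array. AMT1-2 was −0.19 without low NH4 replicate 1 and up to 0.65 without low NH4 replicate 3. GLT1-like was 0.062 after quantile normalization, 0.16 after median centring, 0.10 without water replicate 3, 0.06 without low NH4 replicate 3, 0.069 without both arrays and 0.29 after centring on all tomato probe sets.

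The 100-signal limit bounds what can be read of members that fell below it. Exact fold sizes there depend on MAS5's handling of dim probes.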
